A study of Mus musculus with 8 samples.

Results

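The AP-1 transcription factors of the FOS and JUN families were followed in sorted intestinal tuft cells of mice treated with scopolamine or sham. The members are the 8 genes of the table whose symbol is Fos, Fosb, Fosl1, Fosl2, Jun, Junb, Jund or Atf3, out of 35199 genes listed. All 8 had at least 1 count, and 6 of the 8 passed the expression filter that 12849 genes passed, while Fosb and Fosl1 did not. All mice were Dclk1-DTR-ZSgreen animals, in which a BAC transgene drives a diphtheria toxin receptor and the fluorescent protein ZSgreen from Dclk1 regulatory sequence, and they were aged 8 to 10 weeks at treatment. Osmotic pumps delivered scopolamine, which blocks muscarinic acetylcholine receptors of all subtypes, to 4 mice for 7 days at a daily dose of 0.5 mg per kg, and sodium chloride to the 4 sham mice. Each library is 1 mouse, made from 3000 or 4000 ZSgreen-positive cells sorted after dissociation of the tissue for 45 min at 37 °C. The sort also used a live gate and a gate named EPC-high in the study's methods, and ZSgreen marks cells in which the Dclk1 sequence of the transgene is active.

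AP-1 is a dimer of basic leucine zipper (bZIP) proteins. FOS family proteins bind DNA only as partners of a JUN family protein, whereas JUN proteins can also pair among themselves, and ATF3 pairs with JUN proteins or with itself. Fos, Fosb, Jun, Junb and Atf3 are immediate early or stress-induced genes, transcribed within minutes of a growth factor, calcium or stress signal and also during enzymatic tissue dissociation, while Jund is expressed more steadily in many tissues. Their transcription is controlled through MAP kinases, serum response factor (SRF) and CREB and ATF factors, and their mRNAs are short-lived.

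The tuft cell markers Dclk1, the reporter's own gene, Trpm5, the cation channel of taste signaling, and Pou2f3, the lineage factor of tuft cells, were abundant in every library. In counts scaled to a common library size (CPM), Dclk1 stood at 4313 ± 984 in the scopolamine mice and at 4913 ± 624 in the sham mice (SD, n = 4 each), which is above the level of 99.9% of the genes with a count. Total estimated counts were 14343362 to 20857433 with scopolamine and 25769940 to 41428916 in sham, and the effects of depth and of treatment cannot be told apart between the groups. A floor of 3 counts corresponded to 0.0730 to 0.208 CPM. Sham 1 and sham 3 were made from 200 pg of RNA with 15 amplification cycles, and the other 6 libraries from 1000 pg with 10. The mouse IDs begin with M in scopolamine 1, 2 and 3 and in sham 1, and with N in scopolamine 4 and in sham 2, 3 and 4. What the letter stands for is not given in the sources used here, and it is called the mouse ID series below. Replicate numbers only name the mice.

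The sequence just upstream of the start site is shown for Fos, Fosb, Jun and Junb, whose non-exonic window held a match to a CREB and ATF type motif, because such elements are among those through which immediate early genes are known to be switched on. Promoters were taken from a table made from RefSeq on GRCm38.p6, in which 7 of the 8 members were matched, all but Fosl1. Each line gives up to 150 bases before the start site, 5′ to 3′ on the gene's strand, with exonic bases left out, and capitals mark the match.
Fos, chr12:85473740-85473889, plus strand: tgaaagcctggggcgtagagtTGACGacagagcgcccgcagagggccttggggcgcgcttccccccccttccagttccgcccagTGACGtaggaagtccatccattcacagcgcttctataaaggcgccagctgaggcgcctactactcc
Fosb, chr7:19310052-19310195, minus strand: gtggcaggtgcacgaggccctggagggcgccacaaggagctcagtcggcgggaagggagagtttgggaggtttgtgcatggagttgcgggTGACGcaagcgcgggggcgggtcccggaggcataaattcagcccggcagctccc
Jun, chr4:95052223-95052372, minus strand: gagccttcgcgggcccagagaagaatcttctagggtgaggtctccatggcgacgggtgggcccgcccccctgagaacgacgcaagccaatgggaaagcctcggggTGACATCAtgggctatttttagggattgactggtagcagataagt
Junb, chr8:84978749-84978898, minus strand: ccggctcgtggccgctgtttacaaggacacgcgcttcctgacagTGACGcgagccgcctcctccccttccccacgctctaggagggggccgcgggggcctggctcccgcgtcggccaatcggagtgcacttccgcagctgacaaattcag
In the Fos window the core of the cAMP response element, TGACG, began 129 and 66 bases before the start site. Fosb held TGACG at 60 and Junb at 106 bases, and Jun held the related TGACATCA at 45 bases. Searched on both strands of the 250 bases before the start, TGACG was found in 17.8% of 32841 promoters and in 4 of the 7 members, the other one being Atf3, 7 bases before its start site and within a GENCODE exon of the gene, for which no sequence is shown. The RefSeq start lies within 30 bases of the GENCODE gene start for Fos, Fosb, Jun and Junb, but 671 bases from it for Fosl2, 1210 for Jund and 34706 for Atf3, so the windows of these last genes are not at the gene starts given below. TGACATCA was found in 2.93% of promoters and among the members only in Jun. The full element TGACGTCA, which contains TGACG, was found in 1.55% of promoters, and the AP-1 site, as TGACTCA or TGAGTCA, in 4.46%, each in 0 of the 7 members. The serum response element was found in 1.47% of promoters and in 0 of the 7 members in this window. A match is a description of letters and shows no binding.

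The members differed widely in level. Per kilobase of exon, averaged over the 8 mice, Jund was the most abundant at 429 ± 53.4 CPM per kb (SD, n = 8). Jun followed at 83.4 ± 33.6 and Junb at 76.6 ± 12.1 CPM per kb. Fos stood at 12.0 ± 13.8, Atf3 at 2.73 ± 2.63 and Fosl2 at 1.5 ± 0.398 CPM per kb. Fosl1 at 0.186 ± 0.315 and Fosb at 0.102 ± 0.139 CPM per kb closed the order. Jund was above Jun, Junb above Fos, Fos above Atf3 and Fosl2 above Fosl1 in 8 of 8 mice. Jun exceeded Junb in 5 of 8 mice, Atf3 exceeded Fosl2 in 5 of 8 and Fosl1 exceeded Fosb in 3 of 8, so these neighbors did not differ beyond the spread between mice. Summed over the 3 JUN genes the level was 1205 ± 231 CPM with scopolamine and 1111 ± 147 CPM in sham (SD, n = 4 each), and over the 4 FOS genes 64.3 ± 40.6 CPM and 23.5 ± 9.97 CPM. The JUN genes thus made up most of the AP-1 mRNA in each group on the CPM scale.

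**Figure D1:**
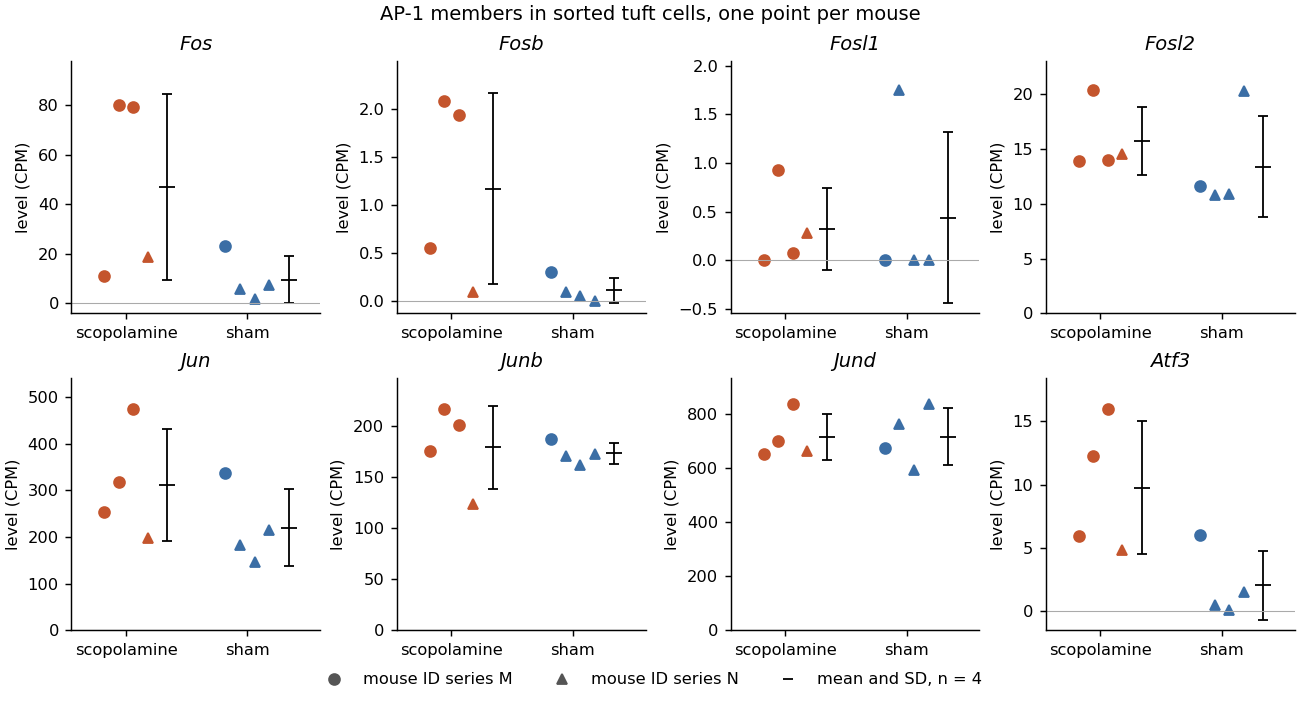
Level of each AP-1 member in CPM (linear axis, one panel per gene), with 1 point per mouse, colored by treatment and shaped by mouse ID series, and the mean with its SD (n = 4) beside each group. Fos reaches 79.9 and 79.1 CPM in 2 scopolamine mice and Jund lies between 592 and 838 CPM in all 8, and the groups overlap in every panel.

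Fos, the founding member of the FOS family, had the smallest unadjusted p among the members in the main edgeR comparison. The gene lies on the plus strand at chr12:85473890-85477273 (GRCm38) and has 4 exons. Its level was 10.9, 79.9, 79.1 and 18.5 CPM in scopolamine 1 to 4, from 218, 1726, 1142 and 396 counts. In sham 1 to 4 it was 23.2, 5.82, 1.62 and 7.49 CPM, from 614, 239, 65 and 242 counts. Scopolamine 2 and 3 were high, whereas scopolamine 1 and 4 both lay below sham 1, so the groups overlapped. The means were 47.1 ± 37.5 and 9.52 ± 9.43 CPM (SD, n = 4 each), 4.95 times higher with scopolamine. The log2 fold change was 2.34 (SE 0.83, 95% interval 0.50 to 4.18) with an unadjusted p of 0.0177 and an adjusted p of 0.812 in edgeR's quasi-likelihood test. DESeq2 gave an adjusted p of 0.160, and the exact permutation test of mean log2 CPM gave p = 0.0857 (two-sided, n = 4 each), where 0.0286 is the smallest that 70 assignments allow.

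Fosb, the member known for its long-lived splice form in neurons, was scarce. It lies on the minus strand at chr7:19302696-19310051. It had 11, 45, 28 and 2 counts in the scopolamine libraries, which were 0.551, 2.08, 1.94 and 0.0934 CPM. The sham libraries had 8, 4, 2 and 0 counts, or 0.302, 0.0974, 0.0498 and 0 CPM. The same scopolamine mice, 2 and 3, were highest as for Fos, and scopolamine 4 fell within the sham range and under the floor of 3 counts. In the edgeR fit without the expression filter the log2 fold change was 3.34 (SE 1.49) with an unadjusted p of 0.0435 and an adjusted p of 0.587. The exact permutation test gave p = 0.0857 (two-sided, n = 4 each).

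Fosl1, which encodes FRA1, was at or near 0 in most mice. Its counts were 0, 20, 1 and 6 with scopolamine and 0, 72, 0 and 0 in sham, and the highest level was 1.75 CPM in sham 2. The gene, on the plus strand at chr19:5447547-5455946, shares exonic bases with Ccdc85b on the opposite strand, which had 624 to 1377 counts per library, and an unstranded library cannot assign such reads to one of the genes. The log2 fold change without the filter was -0.45 (SE 1.95) with an adjusted p of 0.973, and without sham 2 it was 6.04, so that library set its direction. Fosl2, which encodes FRA2 and lies on the plus strand at chr5:32135801-32157842, was present in every mouse. Its level was 13.9, 20.3, 14.0 and 14.6 CPM with scopolamine and 11.6, 10.8, 10.8 and 20.3 CPM in sham. Apart from sham 4 the sham mice were lower than the scopolamine mice. Between the groups the log2 fold change was 0.27 (SE 0.36, 95% interval -0.53 to 1.06) with an adjusted p of 0.931 in edgeR.

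Jun, which encodes the principal partner of FOS, is a gene of a single exon on the minus strand at chr4:95049034-95052222 and shares exonic bases with the antisense gene Junos, which the table does not list. Its level was 254, 317, 476 and 199 CPM in scopolamine 1 to 4 and 337, 182, 147 and 215 CPM in sham 1 to 4. Scopolamine 3 was the highest and sham 3 the lowest, and sham 1 exceeded 3 of the 4 scopolamine mice. The mean was 312 ± 120 CPM with scopolamine and 220.3 ± 82.6 CPM in sham (SD, n = 4 each). The log2 fold change of 0.53 (SE 0.31, 95% interval -0.15 to 1.21) had an unadjusted p of 0.116 and an adjusted p of 0.821 in edgeR.

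Junb, often an antagonist of JUN in growth control, is at chr8:84974484-84978718 on the minus strand and overlaps exonic bases of the abundant Prdx2 on the other strand. Its level was 175, 217, 201 and 123 CPM with scopolamine and 188, 171, 162 and 172 CPM in sham. The scopolamine mice spanned both sides of the tightly grouped sham mice. Between the groups the log2 fold change was 0.077 (SE 0.18, 95% interval -0.32 to 0.48) with an adjusted p of 0.975 in edgeR. Jund, the steadily expressed JUN gene, is a gene of 1 exon at chr8:70698949-70700616 on the plus strand. It stood at 651, 702, 838 and 665 CPM with scopolamine and 676, 763, 592 and 837 CPM in sham. Its highest library was only 1.42 times its lowest, the narrowest spread among the members. Between the groups the log2 fold change was 0.026 (SE 0.15, 95% interval -0.30 to 0.35) with an adjusted p of 0.992 in edgeR.

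Atf3, a stress-induced bZIP factor that pairs with JUN proteins, lies on the minus strand at chr1:191170296-191218039. Its level was 5.96, 12.3, 15.9 and 4.81 CPM in scopolamine 1 to 4, from 119, 265, 230 and 103 counts. In sham 1 to 4 it was 6.0, 0.511, 0.0997 and 1.52 CPM, from 159, 21, 4 and 49 counts. Sham 1 lay among the scopolamine mice and the other 3 sham mice lay below all of them. The means were 9.74 ± 5.27 and 2.03 ± 2.71 CPM (SD, n = 4 each), 4.80 times higher with scopolamine. The log2 fold change was 2.29 (SE 1.05, 95% interval -0.045 to 4.62) with an unadjusted p of 0.0538 and an adjusted p of 0.812 in edgeR. DESeq2 gave an adjusted p of 0.325, and the exact permutation test gave p = 0.0857 (two-sided, n = 4 each). With limma-voom the log2 fold change of Atf3 was 3.52 (unadjusted p of 0.00662, adjusted p of 0.616). That of Fos was 2.54 in the same limma-voom fit (unadjusted p of 0.0196, adjusted p of 0.616).

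Of the family as a whole, 0 of the 8 members passed an adjusted p under 0.1 in edgeR's quasi-likelihood test, as did 0 of all 12849 genes tested (0%). DESeq2 also called 0 of the 8, while it called 1.31% of 14462 genes. At an unadjusted p under 0.05 in edgeR, 2 of the 8 members were higher with scopolamine, Fos in the filtered fit and Fosb in the fit without a filter. The share of all genes that were higher at this p was 3.33% in the filtered fit and 5.54% in the unfiltered one. In the unfiltered fit alone, 3 of the 8 members were below it, Fos with an unadjusted p of 0.0102, Atf3 with 0.0429 and Fosb with 0.0435. The levels did not separate the groups for any member, while 3.93% of all genes tested had groups that did not overlap. These values depended on sham 1, the sham mouse of series M and 1 of the 2 made from 200 pg of RNA. Without it the log2 fold change was 3.27 for Fos, 4.45 for Fosb, 0.81 for Jun and 3.80 for Atf3, all 4 had an unadjusted p under 0.05, and the scopolamine and sham mice no longer overlapped for Fos and Atf3. Without sham 1, 5.25% of all genes in the filtered fit and 5.95% in the unfiltered one were higher at this p, and 4.59% had scopolamine mice all above the sham mice. The smallest adjusted p among these 4 was then 0.319 in edgeR. Without scopolamine 2 or scopolamine 3, 0 of the 8 members had an unadjusted p under 0.05, and the log2 fold change of Fos was 1.95 at the lowest.

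**Figure D2:**
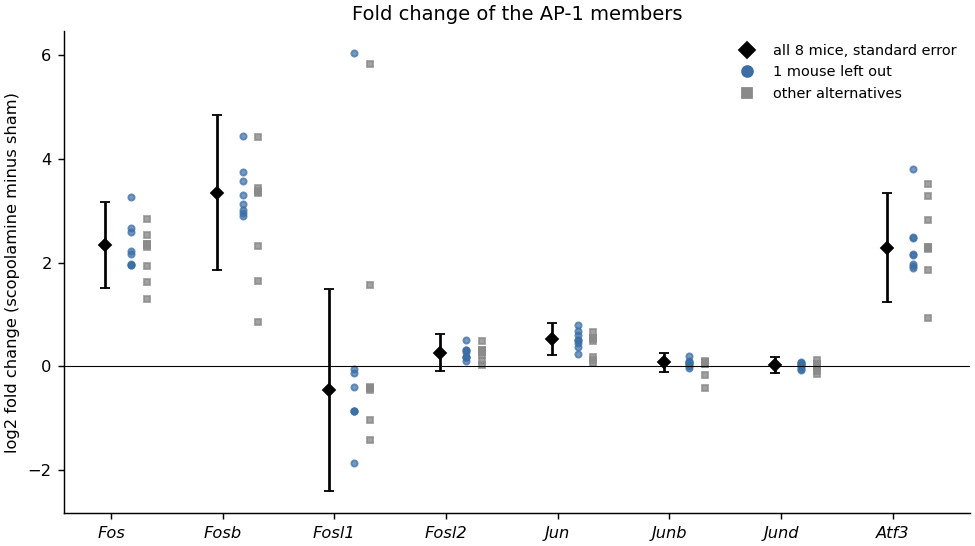
Log2 fold change (scopolamine minus sham) of each AP-1 member, as the estimate from all 8 mice with its standard error (black), with 1 mouse left out at a time (blue) and under the other processing alternatives (grey). Fos, Fosb and Atf3 stay above 0 under every setting, Junb and Jund stay near 0, and Fosl1 ranges from -1.86 to 6.04.

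The mouse ID series separated several members that the treatment did not. In series M, which holds 3 scopolamine mice and 1 sham mouse, every mouse was above every mouse of series N for Fosb, Jun, Junb and Atf3. These were 3 of the 6 members past the filter, where 1.93% of all genes past the filter were higher in all series M mice. Fosb was a further one among the genes with any count, where the background was 1.55%. Jun averaged 346 ± 93.5 CPM in series M and 186 ± 28.9 CPM in series N (SD, n = 4 each). Junb averaged 195 ± 17.9 and 157 ± 23.0 CPM, and Atf3 10.04 ± 4.92 and 1.73 ± 2.14 CPM. Fos averaged 48.3 ± 36.4 and 8.36 ± 7.20 CPM, but scopolamine 1 of series M, at 10.9 CPM, lay below scopolamine 4 of series N, at 18.5 CPM. Jund averaged 717 ± 83.1 and 714 ± 108 CPM and did not follow the series.

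With both treatment and series in the edgeR fit, the series term (N minus M) was -0.87 (SE 0.24) on the log2 scale for Jun, with an unadjusted p of 0.00551. It was -1.93 (SE 0.70, unadjusted p of 0.0206) for Fos, -2.18 (SE 0.88, unadjusted p of 0.0348) for Atf3 and -0.43 (SE 0.18, unadjusted p of 0.0408) for Junb in the same edgeR fit, and the adjusted p was 0.942 for all 4, beside 0.0156% of genes with an adjusted series p under 0.1. An unadjusted p under 0.05 with series M higher was found for 2.66% of all genes tested. The treatment effect in that fit was a log2 fold change of 1.62 (SE 0.69, unadjusted p of 0.0429, adjusted p of 0.862) for Fos, 1.87 (SE 0.88, unadjusted p of 0.0604) for Atf3 and 0.12 (SE 0.24) for Jun. For Fosb, in the fit without a filter, it was 1.64 (SE 1.71) with an unadjusted p of 0.354. Within series M alone, edgeR gave a log2 fold change of 1.30 for Fos, 2.33 for Fosb, 0.063 for Jun and 0.94 for Atf3, with a single sham mouse. Within series N, with a single scopolamine mouse, it was 1.94 for Fos, 0.86 for Fosb, 0.18 for Jun and 2.82 for Atf3. The lone mouse is assumed to vary like the others, and none of these within-series differences had an unadjusted p under 0.05. Fos and Atf3 thus had positive estimates within both series, whereas the values for Jun lay close to 0. Scopolamine 1 nonetheless lay below sham 1, at 10.9 and 23.2 CPM for Fos and 5.96 and 6.0 CPM for Atf3. For Fosb in series N, scopolamine 4 had 2 counts, under the floor of 3 and fewer than the 4 of sham 2, so no direction is drawn.

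**Figure D3:**
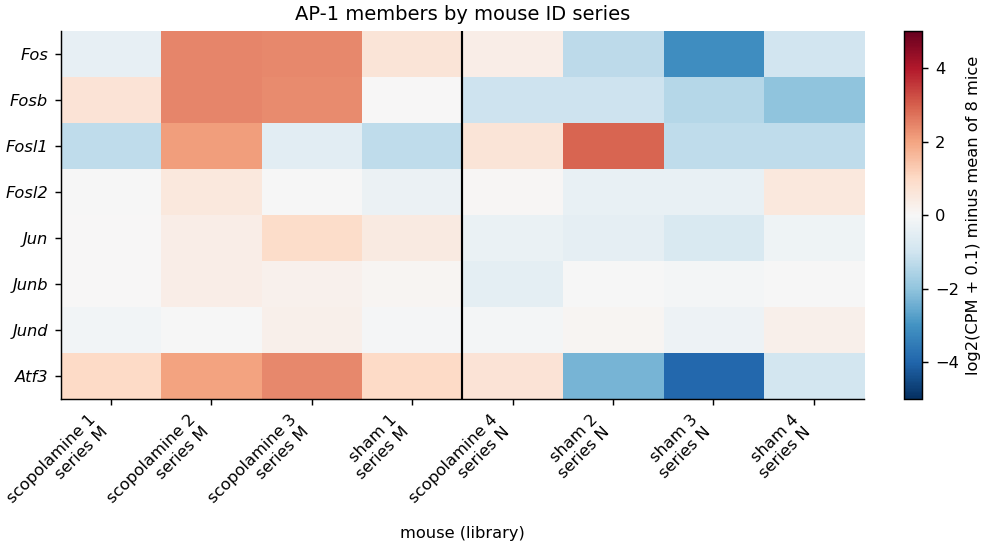
Heat map of log2(CPM + 0.1) of each AP-1 member minus its mean over the 8 mice (rows are genes, columns are mice, red above and blue below the mean), with the series M mice left and the series N mice right of the line. The M columns are redder for Fosb and Atf3 and faintly so for Jun. Scopolamine 2 and 3 are the reddest for Fos and Fosb. The Junb and Jund rows are near white throughout, so the series difference of Junb is too small to read on this color scale.

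Fos, Jun and Atf3 varied together from mouse to mouse, whereas the values for Fosb and Junb depended more on the partner gene or the measure. Over the 8 mice, where the genes of a mouse come from the same library at the same depth, Pearson's r of log2 CPM was 0.94 between Fos and Atf3, 0.89 between Fos and Jun, 0.87 between Jun and Atf3 and 0.83 between Fos and Fosb, with Spearman's rho of 0.95, 0.86, 0.95 and 0.79. Without the 2 mice farthest from the median of the first gene, r was 0.89, 0.89, 0.78 and 0.80. Fosb had an r of 0.82 with Jun and 0.77 with Atf3, and without the 2 farthest mice r was 0.63 and 0.60. Junb had an r of 0.48 with Fos and 0.37 with Atf3 (rho of 0.76 and 0.83), and without the 2 farthest mice r was 0.29 and 0.90. Between Jun and Junb r was 0.65 (rho of 0.86), and 0.68 without the 2 farthest mice. Fos had an r of 0.41 with Jund and 0.24 with Fosl1. These correlations describe 8 mice of both treatments and are given with no test. Genes outside the family reached r as high or higher, as given below, so such values are not particular to the members. The coefficient of variation over the 8 mice ran from 12.5% for Jund, 15.8% for Junb and 26.5% for Fosl2 to 40.3% for Jun, 96.2% for Atf3, 114% for Fos, 135% for Fosb and 169% for Fosl1. Among all genes past the filter, those whose log2 CPM was most like that of Fos over the 8 mice were Ranbp9, Orai1 and Lhpp, with r of 0.96, 0.95 and 0.95. For Atf3 they were Apoa4, Pdzd3 and Tmem144 with r of 0.97, 0.97 and 0.96, and for Jun they were 2610005L07Rik, Ranbp6 and Parp4 with r of 0.97, 0.95 and 0.95. Apoa4 is 1 of the 28 enterocyte markers given below. Like Atf3, it was higher in every mouse of series M (67.7 to 114 CPM) than in every mouse of series N (0.997 to 50.8 CPM). The summed enterocyte markers, given below, did not follow the series. Whether RNA of enterocytes contributed to the level of Atf3 was not tested. The nearest to Jund was Ubqln2 at 0.96 and to Fosl2 Kif1b at 0.97.

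The other genes of the pathway were given by lists. In none of them did a gene pass the adjusted threshold of edgeR. Of all 12849 genes tested, 3.33% were higher with scopolamine and 342 genes lower at an unadjusted p under 0.05 in edgeR. Groups did not overlap for 3.93% of them. A single such gene in a list is near these shares and shows nothing particular to the list. Among 30 other bZIP factors that can pair with or compete with AP-1, 26 passed the filter, 13 were numerically higher and 13 lower with scopolamine, and the median log2 fold change was 0.024 beside -0.011 for all genes tested. The 1 with an unadjusted p under 0.05 was Cebpd, a C/EBP factor of acute responses. It stood at 37.9, 44.1, 45.7 and 44.2 CPM with scopolamine and 32.8, 33.5, 29.5 and 29.6 CPM in sham, groups that did not overlap, with a log2 fold change of 0.48 (SE 0.19, unadjusted p of 0.0288, adjusted p of 0.812) in edgeR. DESeq2 called Cebpd, with an adjusted p of 0.0408, beside 1.31% of 14462 genes. Next by p were Nfe2l1 with a log2 fold change of 0.39 and Creb3 with 0.29. Jdp2, a repressive partner of JUN, did not pass the filter, with 8, 59, 1 and 1 counts with scopolamine and 0, 1, 0 and 1 counts in sham, so that its level rested mainly on scopolamine 2.

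The list of MAP kinases, their upstream kinases and SRF and MEF2 factors that control the members held 36 symbols. Of these, Mkl1 and Mkl2 are older names of the listed Mrtfa and Mrtfb. In it 31 genes passed the filter, 17 were numerically higher and 14 lower, and the median log2 fold change was 0.099. Rps6ka1, which encodes the kinase RSK1 downstream of ERK, was the 1 with an unadjusted p under 0.05, beside 3.33% of all genes tested. It stood at 192, 261, 242 and 240 CPM with scopolamine and at 205, 162, 122 and 132 CPM in sham, a log2 fold change of 0.62 (SE 0.19, unadjusted p of 0.00907, adjusted p of 0.812) in edgeR. Map3k4 and Map3k1, kinases of the JNK and p38 cascades, had log2 fold changes of 0.74 and 0.69. The list of phosphatases, Sprouty-type inhibitors and mRNA decay factors that end the response held 24 symbols. Of these, Rfwd2 is an older name of the listed Cop1. In this list 20 genes passed the filter and 0 had an unadjusted p under 0.05, with 12 numerically higher, 8 lower and a median of 0.069. Spred1, an inhibitor of RAS signaling, was at 3.11, 2.96, 3.60 and 6.59 CPM with scopolamine and at 0.151, 0.0974, 1.64 and 2.17 CPM in sham. Its groups did not overlap, as for 3.93% of all genes tested, and its log2 fold change was 2.04 (SE 1.02, unadjusted p of 0.0726 in edgeR). Dusp8, a phosphatase of JNK and p38, had a log2 fold change of -0.89, and Zfp36l1, an mRNA decay factor, one of 0.43.

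The list of other immediate early genes, which like Fos are transcribed within minutes of a signal, held 42 symbols. Of these, Cyr61 and Ctgf are older names of the listed Ccn1 and Ccn2. Of 32 past the filter, 24 were numerically higher and 8 lower with scopolamine, and the median log2 fold change was 0.32. An unadjusted p under 0.05 was found for 3, all higher, beside 3.33% of all genes tested. The 3 were Nr4a2, an orphan nuclear receptor, with a log2 fold change of 2.25 (SE 0.98), Rhob, a small GTPase, with 0.76 (SE 0.29), and Id1, an inhibitor of basic helix-loop-helix factors, with 0.60 (SE 0.24). Socs3, a feedback inhibitor of cytokine signaling, was the 1 of the 32 whose groups did not overlap, beside 3.93% of all genes tested. It stood at 5.16 to 10.8 CPM with scopolamine and 0.0377 to 4.75 CPM in sham. Nr4a1 and Arc, both below the filter, were called by DESeq2, with adjusted p of 3.47e-04 and 0.0130, beside 1.31% of 14462 genes. In edgeR without the filter the adjusted p was 0.587 for both. Arc had 0, 222, 92 and 1 counts with scopolamine and 0, 1, 1 and 0 in sham, so that its level rested on scopolamine 2 and 3. Nr4a1 had 7, 208, 198 and 10 counts with scopolamine and 0, 4, 1 and 4 in sham. Scopolamine 2 and 3, the mice with the most Fos, were thus also the mice with the most Nr4a1. Btg2 and Klf6, 2 of the 32 past the filter, were higher in all 4 mice of series M than in all 4 of series N. The same held for Jun and Junb, and for 1.93% of all genes past the filter.

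Genes known as AP-1 targets numbered 34, of which 19 passed the filter, 14 numerically higher and 5 lower, with a median log2 fold change of 0.22. Cdkn1a, a cell cycle inhibitor, was the 1 with an unadjusted p under 0.05. It was lower with scopolamine, as were 342 of all 12849 genes tested at this p. Its level was 974 ± 190 CPM beside 1316 ± 191 CPM in sham (SD, n = 4 each), a log2 fold change of -0.40 (SE 0.17). Vim, an intermediate filament gene, had a log2 fold change of 3.16 (SE 1.45, unadjusted p of 0.0531 in edgeR). Tnf, a cytokine gene, was the 1 of the 19 whose groups did not overlap, beside 3.93% of all genes tested. It stood at 1.53 to 4.81 CPM with scopolamine and 0 to 0.906 CPM in sham. The matrix metalloproteinase genes Mmp1a, Mmp3, Mmp10 and Mmp13 and their inhibitor Timp1, classical AP-1 targets, had 0 counts in every library.

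**Figure D4:**
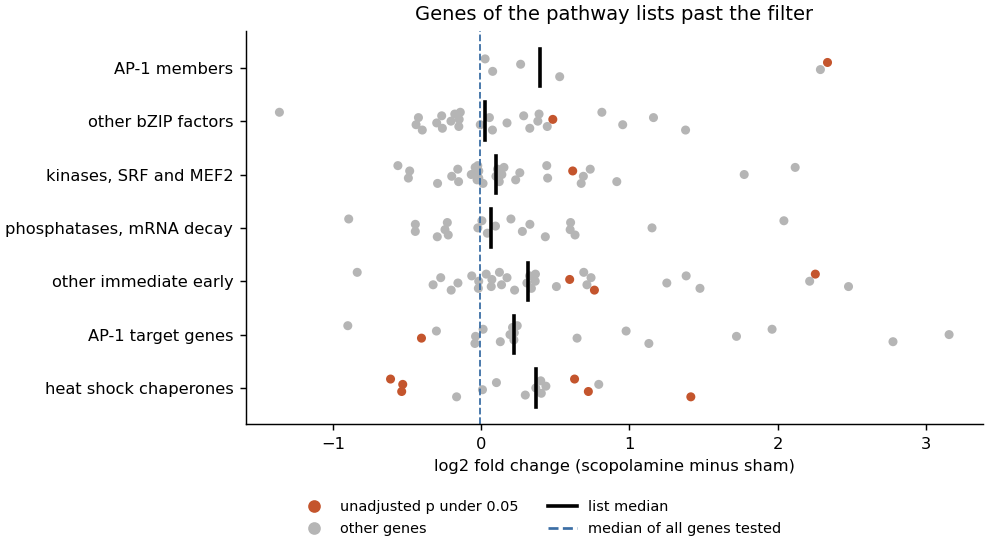
Log2 fold change (scopolamine minus sham) of the genes past the filter in each pathway list, 1 point per gene, red where the unadjusted p was under 0.05, with the list median (black bar) and the median of all genes tested (dashed line, -0.011). The medians run from 0.024 for the other bZIP factors to 0.40 for the AP-1 members, and points lie on both sides of 0 in every list but the members.

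Heat shock chaperones, which like AP-1 genes respond to tissue dissociation, had values on both sides of 0. All 15 passed the filter, 11 were numerically higher and 4 lower, with 3 at an unadjusted p under 0.05 on each side. Over all 12849 genes tested, 428 were higher (3.33%) and 342 lower at this p. Hspa1a, Dnajb1 and the regulator Hsf1 had log2 fold changes of 1.41, 0.63 and 0.72, and Hsp90aa1, Hsp90ab1 and Hspe1 of -0.53, -0.54 and -0.61. Markers of other cells also differed numerically between the groups. Of 28 enterocyte markers past the filter, 27 were numerically higher with scopolamine, 11 at an unadjusted p under 0.05, and their summed level was 5309 to 16945 CPM beside 4013 to 10242 CPM in sham. Goblet and Paneth markers summed to 739 to 3651 CPM beside 400.5 to 1480 CPM, with 15 of 16 numerically higher. Enteroendocrine markers summed to 509 to 1138 CPM beside 190 to 1615 CPM, with 17 of 21 numerically higher. Stem and cycling markers had a median log2 fold change of 0.057, with 8 of 15 numerically higher.

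Leukocyte markers summed to 252 to 937 CPM with scopolamine and 161 to 516 CPM in sham, with 14 of 17 past the filter numerically higher. In series M, all 4 mice were above all 4 of series N for 5 of these 17, Ptprc, Cd3e, Cd3g, Gzma and Cd7. The same held for 5 of 28 enterocyte markers, beside 1.93% of all genes past the filter. The summed levels did not follow the series. Scopolamine 4 of series N had the highest leukocyte sum, 937 CPM, and the highest enterocyte sum, 16945 CPM. Among the sham mice the leukocyte sum was 516 CPM in sham 1, which had the most Fos and Atf3. It was 161 to 235 CPM in the others. In scopolamine 1 to 4 the leukocyte sum was 252, 751, 403 and 937 CPM, beside Fos at 10.9, 79.9, 79.1 and 18.5 CPM. Stromal markers summed to 39.9 to 64.3 CPM beside 44.7 to 86.7 CPM, with 1 of 5 past the filter numerically higher, and Myh11 and Sox10 had 0 counts in every library. All cells had passed the live and EPC-high gates of the sort. The part of these cell types, of depth and of dissociation in the levels of the AP-1 members was not tested, and in sorted bulk samples a change in the cells present and a change in RNA per cell cannot be told apart. Tuft markers summed to 41511 to 68144 CPM with scopolamine and 54615 to 61271 CPM in sham, with 24 of 30 numerically lower and a median log2 fold change of -0.13. Hpgds, a prostaglandin D synthase, was lower in all 4 scopolamine mice than in all 4 sham mice, with a log2 fold change of -0.57 (SE 0.20, unadjusted p of 0.0175, adjusted p of 0.812 in edgeR). It was the 1 of the 30 whose groups did not overlap, beside 3.93% of all genes tested.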

How the data were processed

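Bulk RNA sequencing of sorted tuft cells from 4 scopolamine and 4 sham mice was used, 1 library per mouse. RNA was amplified with the Clontech Ultra Low v4 kit and libraries were made with Nextera XT, which keep no strand. The authors assigned reads of 100 bp to GRCm38 transcripts with kallisto 0.44.0 after bcl2fastq 2.20 (both from the submitters' processing notes), and deposited estimated counts per gene, not normalized. The values are whole numbers, so rounding changed none. The annotation release is not given in the sources used here. Gene positions are from GENCODE M21 on GRCm38. RNA input and amplification cycles were taken from the study's source data.

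Groups were compared in R 4.3.3 with edgeR 4.0.16 (TMM, filterByExpr, quasi-likelihood test, Benjamini-Hochberg adjusted p under 0.1 over all genes tested). Fosb, Fosl1 and other genes the filter removes come from the fit without it, over 21805 genes. CPM use TMM factors, and log2 CPM a prior count of 2. Single genes were compared by exact permutation over 70 assignments. The fits were repeated with DESeq2 1.42.0, with limma-voom from limma 3.58.1, with other scalings and filters, with a term for the mouse ID series, without both 200 pg libraries, without each mouse in turn, and, chosen after seeing the data, each series alone. Tested on simulated data over 12849 genes for this comparison, edgeR recovered 62% of genes changed by 2 on the log2 scale and 22% of those changed by 1.

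The members and lists were chosen with earlier results of these data known. Named were the 8 members, of the 3 genes most like each by Pearson's r those printed, and from each pathway list up to 3 genes with the smallest p and up to 5 whose groups do not overlap; others with an unadjusted p under 0.05, series differences, 0 counts or DESeq2 calls were named after their values were seen. Nothing in the labels shows more than 1 library per mouse. The SE printed for edgeR is the size of the log2 fold change divided by the square root of the test's F statistic. Intervals use that SE with edgeR's residual and prior degrees of freedom and cover the spread between mice, and floors cover counting error only. Some results that the rule would name are not reported here.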

Additional observations from a re-analysis of the deposited data

Results flagged for a closer look

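In 3 of the 16 groups of 4 mice that were checked, 1 mouse lay far from the other 3. For normally distributed values chance flags about 1 in 20 groups. CPM values need not be normal, and a group with 3 values of 0 and 1 above it is always flagged, so this rate is only a rough guide. Fosl1 stood at 1.75 CPM in sham 2, from 72 counts, and at 0 in the other 3 sham mice. Fosl2 stood at 20.3 CPM in scopolamine 2, beside 13.9 to 14.6 CPM in the other scopolamine mice. Fosl2 also stood at 20.3 CPM in sham 4, beside 10.8 to 11.6 CPM in the other sham mice.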

How the results depend on the processing

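The number of AP-1 members with an adjusted p under 0.1 was 0 under every alternative. Fos, Fosb and Atf3 had a log2 fold change above 0 in every alternative that gave a value. It was 1.30 to 3.27 for Fos and at least 0.94 for Atf3 and 0.86 for Fosb. The lowest for Fosb, within series N, rests on 2 counts in the only scopolamine mouse. Over all genes, edgeR called 0, and the count was 190 with DESeq2, 9 without both 200 pg sham libraries, 2 within series M, 3 within series N and 0 to 2 with 1 mouse left out. Members with an unadjusted p under 0.05 numbered 2, 3 with DESeq2, 3 without the filter and 3 without both 200 pg libraries, and 1 with at least 10 counts in every library (5 members tested), 1 with the mouse ID series as a covariate, 0 within series M, 0 within series N and 0 to 4 with 1 mouse left out. Members whose groups do not overlap numbered 0, and 2 without both 200 pg libraries (Fos and Atf3) and 0 to 2 with 1 mouse left out. The log2 fold change of Jund, 0.026, turned to -0.0061 without the filter, -0.15 without both 200 pg libraries and -0.092 within series N, and spanned -0.065 to 0.094 with 1 mouse left out. Junb, 0.077, turned to -0.16 with the series as a covariate and -0.41 within series N, and spanned -0.037 to 0.21. Fosl1, -0.45, turned to 1.57 with the series as a covariate and 5.82 within series M, and spanned -1.86 to 6.04. The causes were not tested. No paired analysis was possible because the replicate numbers were given in accession order and pair no mice. In the simulated data, edgeR mostly did not recover a log2 difference of 1. Depth was not varied there and the changed genes were drawn at random, so the recovery need not hold for the members. Fosb and Fosl1 rest on few counts.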
